A study of Mus musculus with 29 samples.

Results

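The genes described here are 33 genes of glycolysis and pyruvate handling, chosen by name from the textbook pathway: glucose transporters, hexokinases, the enzymes from glucose 6-phosphate to pyruvate, lactate dehydrogenases, monocarboxylate transporters, pyruvate dehydrogenase with its kinases, and 3 enzymes of gluconeogenesis and anaplerosis. They were chosen with earlier results of these data known. All 33 had a probe and passed the filter on dim probes, out of 16333 genes tested and 20956 gene symbols on the array. RNA of mouse cells in 9 groups was measured on 29 one-colour Agilent arrays. A first set held naive embryonic stem cells in 2i/LIF (ESC, 3 arrays), cells differentiated from them for 7 to 8 days in Activin, CHIRON and LIF (Diff, 3 arrays, labelled primitive endoderm), the endoderm expanded from such cultures (nEnd) at passages 7 to 10 (Mid, 3 arrays) and 14 to 15 (Late, 3 arrays), and extraembryonic endoderm cells (XEN, 3 arrays). A second set held stem cells in 2i:LIF (2iL, 3 arrays), stem cells kept at least 3 passages in N2B27 with Activin, Chiron and LIF (NACL, 4 arrays), epiblast stem cells (EpiSC, 3 arrays), and EpiSC taken for 4 days to anterior definitive endoderm (ADE, 4 arrays). ESC, Diff, Mid and Late came from 1 double reporter line, HRHnG, EpiSC and ADE were labelled HRHNG, XEN had its own line, and 2iL and NACL each pooled arrays of HVMC, E14 and E14-NanogGFP, so a group of the first set is 1 line and a group of 2iL or NACL is 3. The labels give all samples as male. The nEnd replicates came from separate differentiations. For the other groups nothing stated whether arrays were separate cultures. The main fit takes 1 estimate of a gene's spread from all 29 arrays. All its p-values, those of nEnd included, therefore measure only the spread between these arrays, which may be technical.

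Glycolysis converts glucose to pyruvate through trapping by hexokinase, the committed step at phosphofructokinase, and a payoff phase that ends at pyruvate kinase. Pyruvate is then reduced to lactate by lactate dehydrogenase and exported through monocarboxylate transporters, or enters mitochondria, where pyruvate dehydrogenase makes acetyl-CoA and pyruvate dehydrogenase kinases switch that enzyme off by phosphorylation. Most steps have several isozymes with different regulation and tissue distribution, and primed pluripotent cells are known for a more glycolytic metabolism than naive ones.

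A level is the log2 signal after subtracting the 75th percentile of its array, so 0 is the signal below which 75% of that array's probes lie, and differences are in log2 units with the standard error of the fit. Levels of different genes are not compared, since each comes from its own probe. A gene is called where the limma test gave a Benjamini-Hochberg adjusted p under 0.05 over all 16333 genes. The share of probes well above background ran from 49.21% to 79.68% by array, no spot was saturated, and the lowest correlation between replicates of a group ranged from 0.956 to 0.978. The 2 array sets share no slide, scan day or scanner software version, so groups are compared only within a set. The 6 primitive endoderm markers were well above background on every Diff, Mid, Late, XEN and ADE array. The log2 of their summed linear signals, in which the brightest markers weigh most, was 5.87 to 6.544 in ADE against 1.123 to 1.257 in EpiSC. The 5 definitive endoderm markers were well above background on every EpiSC and ADE array. The log2 of their summed signals was 8.03 to 8.497 in ADE against 2.797 to 3.059 in EpiSC. All 6 naive pluripotency markers were still well above background on every Diff array, and 5 of 6 on every Mid, Late, XEN and ADE array. For the 5 primed markers this sum was higher in ADE (8.621 to 9.173) than in EpiSC (6.833 to 6.975), but the markers were mixed, with 3 called higher and 1 lower. Otx2 went from a mean of 3.45 in EpiSC to 7.46 in ADE, while Pou3f1 went from 5.02 to 1.07 and Zic2 from 2.70 to 1.95. In such bulk RNA, fewer cells of a type and less RNA per cell cannot be told apart.

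Of the 8 comparisons, ADE against EpiSC had the most called members and Late against Mid the fewest. In Diff against ESC, 6 of 33 members were called higher (18.2%) and 7 lower (21.2%), near the 23.5% and 18.9% of all genes. In Mid against Diff 5 were higher and 9 lower (15.2% and 27.3%), against 12.3% and 16.8% of all genes. In nEnd (Mid and Late averaged) against ESC 5 were higher and 13 lower (15.2% and 39.4%), against 28% and 25.3% of all genes. In nEnd against XEN 3 were higher and 14 lower (9.09% and 42.4%), against 16.6% and 24.5%. In EpiSC against 2iL 13 were higher and 5 lower (39.4% and 15.2%), against 21.5% and 20.1%. In ADE against EpiSC 4 were higher and 20 lower (12.1% and 60.6%), against 16.9% and 20.7%. Since the members were chosen with earlier results of these data known, these shares are descriptive only. The members' median difference was 0.37 in EpiSC against 2iL and -1.11 in ADE against EpiSC, while the medians of all genes tested were -0.02 and -0.05. These 2 comparisons share the EpiSC arrays, as the comparisons of Diff share the Diff arrays. EpiSC (HRHNG) and 2iL (HVMC, E14 and E14-NanogGFP) share no cell line label, and XEN has its own line. In EpiSC against 2iL and in nEnd against XEN, line and cell state therefore cannot be told apart.

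**Figure D1:**
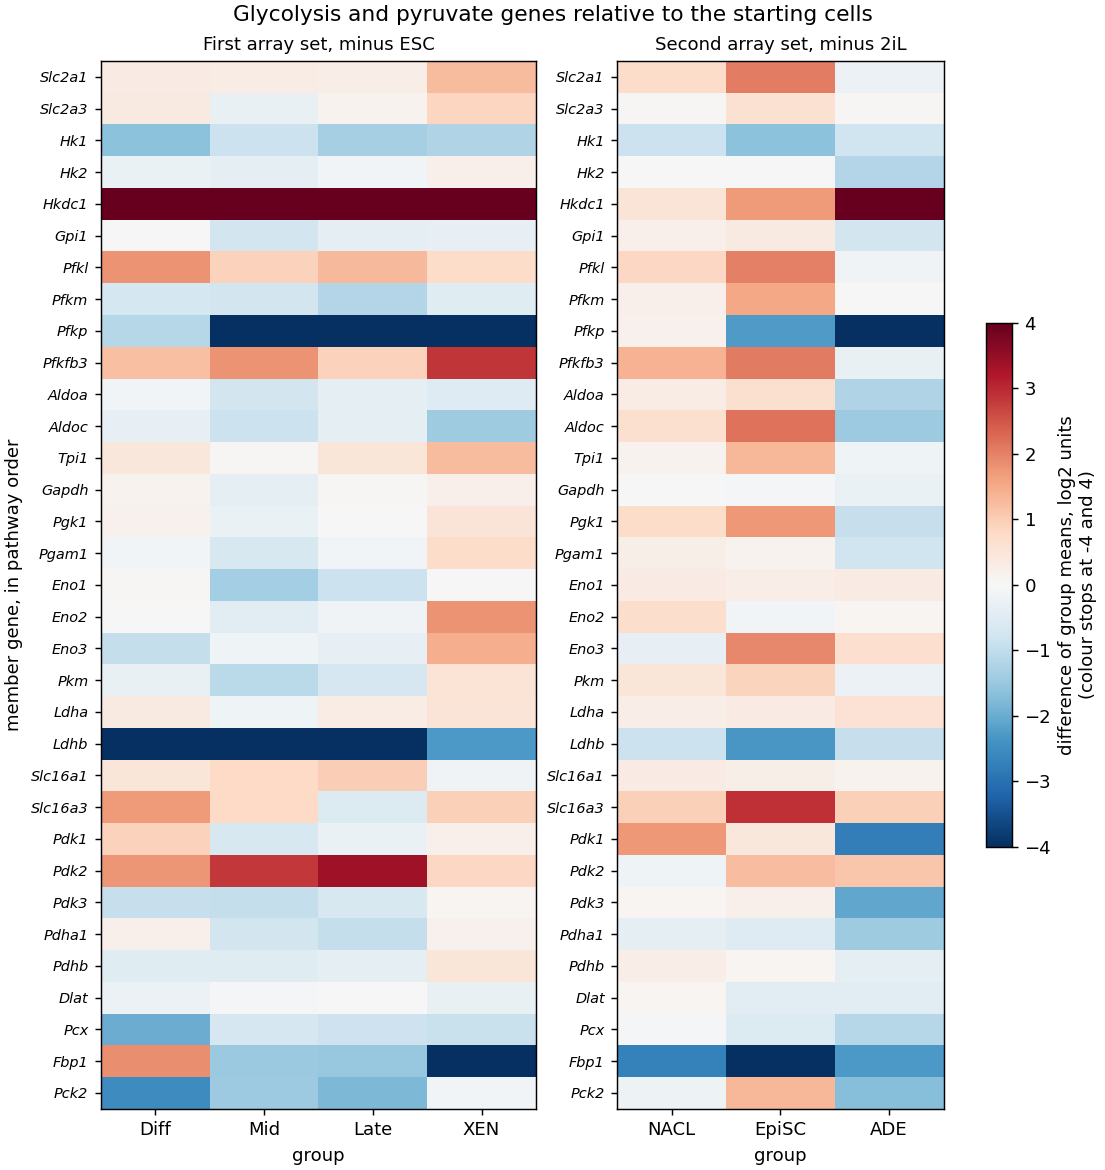
Difference of each member's group mean from ESC (left, first array set) and from 2iL (right, second set), in log2 units, with genes in pathway order and colours that stop at -4 and 4. Hkdc1 is at the top of the scale in Diff, Mid, Late, XEN and ADE, Ldhb and Pfkp lie at its bottom in Mid and Late, and the EpiSC column is mostly red where the ADE column is mostly blue or pale.

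The promoters of 6 members are shown, chosen with their values known, for the transporter, isozyme and hexokinase results below: the glucose and lactate transporter genes Slc2a1 and Slc16a3 and the phosphoglycerate kinase gene Pgk1, which were higher in EpiSC than in 2iL, the lactate dehydrogenase pair Ldha and Ldhb, and the hexokinase gene Hkdc1. Each sequence is the RefSeq promoter on build GRCm38.p6, 250 bases before to 50 after the start, read 5′ to 3′ on the gene's strand. Capitals mark ACGTG, a form of the core of the hypoxia response element, on either strand.
Slc2a1 (chr4:119108495-119108794, + strand): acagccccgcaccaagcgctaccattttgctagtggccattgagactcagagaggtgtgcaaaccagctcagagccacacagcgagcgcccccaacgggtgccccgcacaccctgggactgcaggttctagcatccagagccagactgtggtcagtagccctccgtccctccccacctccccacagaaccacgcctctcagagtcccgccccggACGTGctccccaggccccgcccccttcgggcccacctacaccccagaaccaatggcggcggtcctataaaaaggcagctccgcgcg
Slc16a3 (chr11:120948817-120949116, + strand): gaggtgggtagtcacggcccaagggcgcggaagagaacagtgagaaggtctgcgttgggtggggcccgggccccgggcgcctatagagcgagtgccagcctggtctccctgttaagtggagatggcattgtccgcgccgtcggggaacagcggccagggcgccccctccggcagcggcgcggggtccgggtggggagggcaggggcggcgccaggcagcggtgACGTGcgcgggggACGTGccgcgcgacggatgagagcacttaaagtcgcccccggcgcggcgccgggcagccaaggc
Pgk1 (chrX:106186850-106187149, + strand): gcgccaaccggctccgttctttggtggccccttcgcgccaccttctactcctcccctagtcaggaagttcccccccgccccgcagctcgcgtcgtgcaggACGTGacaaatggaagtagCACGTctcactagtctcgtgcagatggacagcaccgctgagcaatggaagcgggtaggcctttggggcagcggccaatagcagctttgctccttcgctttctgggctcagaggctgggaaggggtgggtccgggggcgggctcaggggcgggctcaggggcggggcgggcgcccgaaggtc
Ldha (chr7:46845554-46845853, + strand, the first of its listed promoters): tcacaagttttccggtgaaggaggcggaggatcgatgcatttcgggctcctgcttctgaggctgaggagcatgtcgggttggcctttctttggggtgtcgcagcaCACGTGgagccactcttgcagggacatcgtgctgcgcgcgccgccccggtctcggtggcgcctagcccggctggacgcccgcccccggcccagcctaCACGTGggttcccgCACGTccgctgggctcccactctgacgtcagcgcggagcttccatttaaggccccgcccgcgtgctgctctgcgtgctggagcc
Ldhb (chr6:142507908-142508207, - strand): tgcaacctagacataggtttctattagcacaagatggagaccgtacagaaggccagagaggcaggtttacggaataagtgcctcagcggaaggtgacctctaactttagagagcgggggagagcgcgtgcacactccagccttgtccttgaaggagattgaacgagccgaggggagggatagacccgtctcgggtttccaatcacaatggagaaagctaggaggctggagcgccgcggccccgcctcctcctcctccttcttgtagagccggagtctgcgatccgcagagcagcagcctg
Hkdc1 (chr10:62422408-62422707, - strand): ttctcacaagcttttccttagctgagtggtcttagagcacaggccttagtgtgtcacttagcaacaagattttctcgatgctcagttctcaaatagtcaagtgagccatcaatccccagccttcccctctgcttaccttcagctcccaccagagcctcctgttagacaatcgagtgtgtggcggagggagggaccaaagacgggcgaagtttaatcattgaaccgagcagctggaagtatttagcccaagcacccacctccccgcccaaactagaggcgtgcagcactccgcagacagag

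Slc2a1 held 1 ACGTG match, Slc16a3 and Pgk1 2 each, and Ldha 5, of which 4 form overlapping pairs on opposite strands. Ldhb and Hkdc1 held no ACGTG in this window, and other forms of the core were not searched. A match was present in 21 of 47 promoters of members (44.7%), against 6447 of 32851 promoters in the table (19.6%). Counted by gene with any promoter, 18 of the 32 members found in the table held one (56.2%), against 21.8% of all genes. The share was 8 of 13 (61.5%) among members higher in EpiSC than in 2iL and 12 of 20 (60%) among members lower in ADE than in EpiSC. A match describes the letters only.

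Hexokinases, which trap glucose in the cell, showed a gain of Hkdc1 and a drop of Hk1. Hkdc1 encodes a hexokinase-domain protein, and its gene lies beside Hk1 on chromosome 10. On the ESC arrays Hkdc1 stood at -3.97, -2.84 and -3.38, and on the Diff arrays at 6.57, 4.93 and 4.76. The Mid arrays gave 5.92, 5.59 and 5.66, the Late arrays 6.06, 6.26 and 5.93, and the XEN arrays 5.99, 5.99 and 6.73. Every Diff, Mid, Late and XEN array lay above every ESC array. Hkdc1 was thus 453-fold higher in Diff than in ESC (8.82 ± 0.49 SE, limma adjusted p = 3e-12) and 632-fold higher in nEnd (9.30 ± 0.42, adjusted p = 4.3e-14). Its difference between nEnd and XEN (-0.33 ± 0.42, adjusted p = 0.57) did not pass. In the second set the 2iL arrays gave -3.74, -2.71 and -2.83, the EpiSC arrays -1.11, -1.04 and -2.03, and the ADE arrays 4.84, 5.49, 4.72 and 5.12. For Hkdc1 the NACL arrays gave -2.99, -2.04, -3.80 and -1.51. Hkdc1 rose in EpiSC (1.70 ± 0.49, limma adjusted p = 0.007) and was 86.5-fold higher in ADE than in EpiSC (6.43 ± 0.46, adjusted p = 3.7e-10).

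Hk1, the widely expressed hexokinase, stood at 4.90, 4.96 and 4.56 in ESC and at 3.70, 2.73 and 3.02 in Diff, with no overlap (-1.65 ± 0.29, limma adjusted p = 6.3e-05). It stood at 3.94, 3.94 and 3.92 in Mid, at 3.52, 3.59 and 3.27 in Late and at 3.51, 3.65 and 3.65 in XEN. In EpiSC it stood at 3.15, 3.23 and 2.43 against 4.76, 4.28 and 4.71 in 2iL (-1.64 ± 0.29, limma adjusted p = 7.3e-05). Hk1 also gave 3.90, 4.21, 3.98 and 2.81 in NACL and 3.48, 4.11, 3.81 and 3.68 in ADE. Its second probe gave -1.86 in Diff and -1.13 in EpiSC, both called lower, 0.33 in ADE, which was not called, and -0.86 in NACL, called lower where the first probe was not. In the authors' processed values, however, Hk1 followed the scanner values with a correlation of only 0.33 over 29 arrays, and its differences there were 0.207 in Diff and -0.40 in EpiSC, neither of which passed. Its calls in nEnd against ESC and in ADE were lost there too. Its rise in Mid (0.78 ± 0.29, adjusted p = 0.046) lost its call without Diff 2, Diff 3 or any of the Mid arrays, and its rise in ADE (0.83 ± 0.27, adjusted p = 0.018) without EpiSC 3 or ADE 2. Hk2, the insulin-responsive form of muscle and of many proliferating cells, stood at 3.57, 3.70 and 3.89 in ESC and at 3.69, 3.12 and 3.51 in Diff, which overlapped. The EpiSC arrays gave 4.14, 3.88 and 3.61 and the ADE arrays 2.96, 3.01, 2.16 and 2.74, all below them (-1.16 ± 0.33, limma adjusted p = 0.0068). The remaining Hk2 levels were 2.70, 3.55 and 3.84 in Mid, 3.54, 3.81 and 3.49 in Late, 3.53, 4.09 and 4.15 in XEN, 3.81, 4.18 and 3.67 in 2iL and 2.68, 4.17, 4.39 and 4.22 in NACL.

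**Figure D2:**
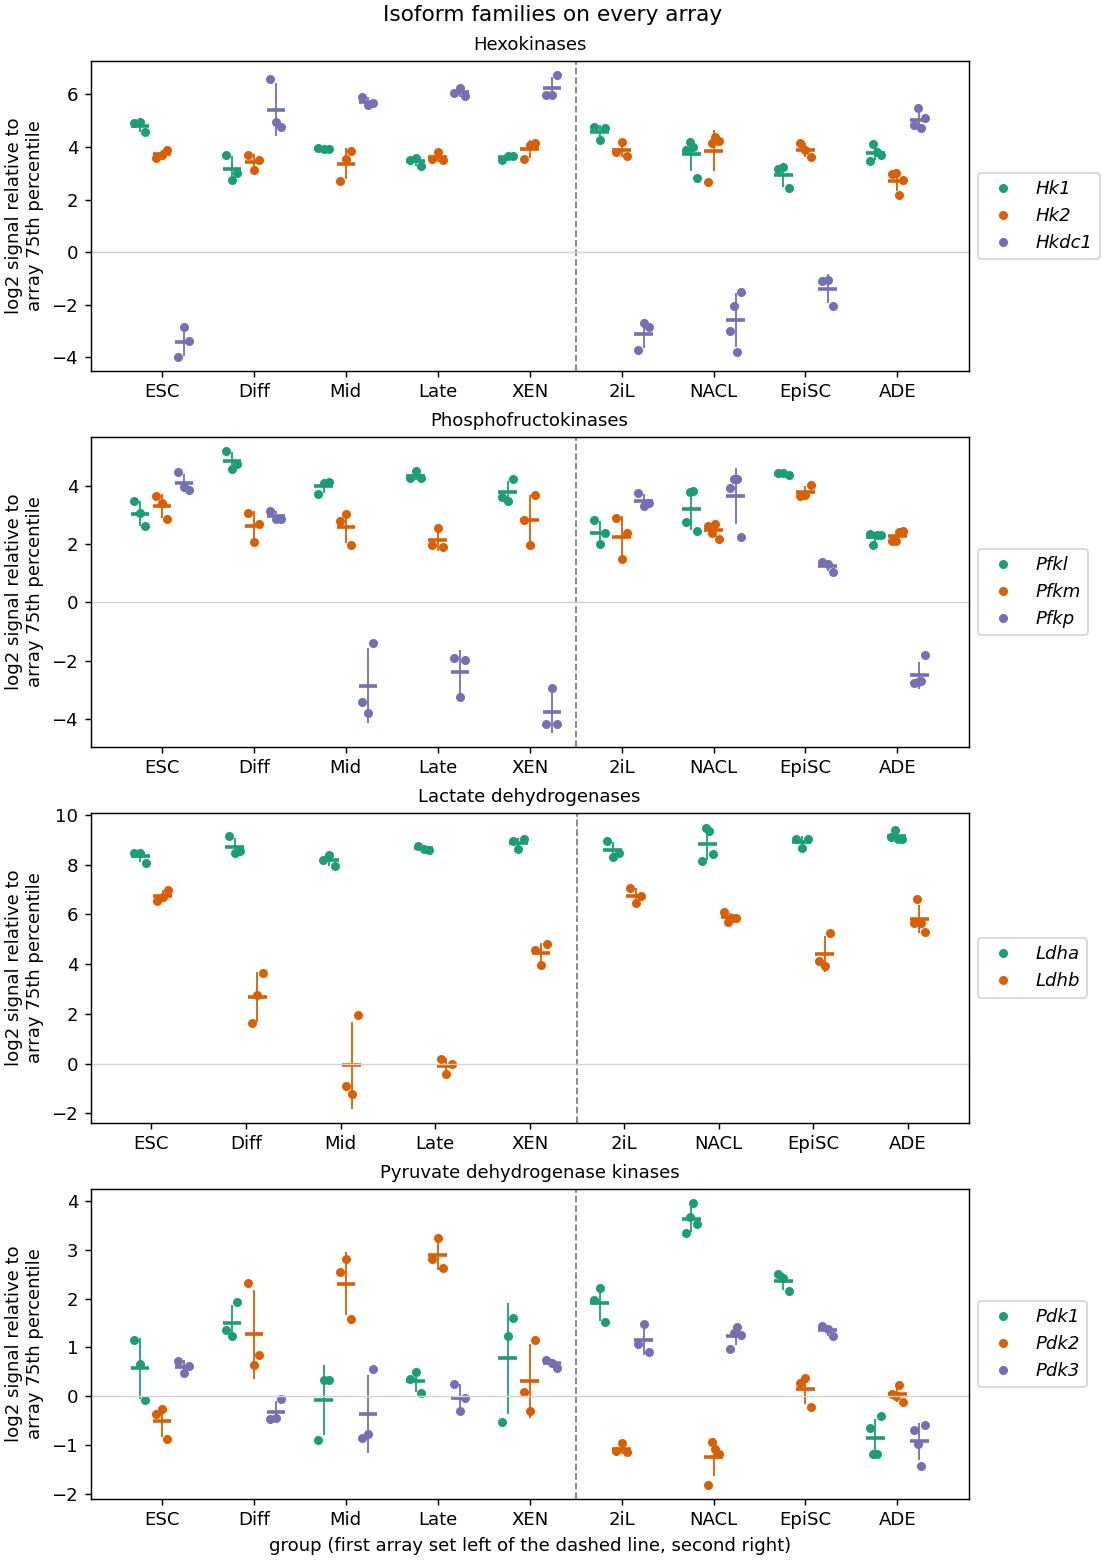
Log2 signal relative to the array's 75th percentile (vertical axis) on every array (points) for 4 isozyme families, by group; horizontal bars are group means, vertical bars 1 SD, and a dashed line parts the 2 array sets. Levels are comparable between groups of a set for 1 gene, not between genes: Hkdc1 is high in every endoderm group, Pfkp is low in Mid, Late, XEN and ADE, and Ldhb is lowest in Mid and Late while Ldha lies between 7.93 and 9.46 on all arrays.

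Phosphofructokinase, the committed step, changed isozymes. Pfkp, the platelet form, stood at 4.47, 3.98 and 3.88 in ESC, at 3.16, 2.86 and 2.88 in Diff, at -3.42, -3.79 and -1.40 in Mid and at -1.92, -3.26 and -1.98 in Late. The drop lay between Diff and Mid, a 57.2-fold difference (-5.84 ± 0.53, limma adjusted p = 5.4e-08), while Diff against ESC did not pass (-1.14 ± 0.53, adjusted p = 0.089). Against ESC, nEnd was 107-fold lower (-6.74 ± 0.46, adjusted p = 2.4e-11). On the XEN arrays it stood at -4.18, -2.96 and -4.19 and was well above background on 2 of 3. ADE gave -2.77, -2.73, -2.71 and -1.82 against 1.40, 1.30 and 1.05 in EpiSC (-3.76 ± 0.50, limma adjusted p = 2.5e-06), and EpiSC lay below 2iL at 3.76, 3.32 and 3.42 (-2.25 ± 0.53, adjusted p = 0.0015). For Pfkp the NACL arrays gave 3.93, 4.24, 4.26 and 2.23. A second, dimmer Pfkp probe gave smaller differences of -2.26 in Mid against Diff and -1.92 in nEnd against ESC, both called lower. It gave -0.72 in EpiSC and -0.35 in ADE, neither called. In nEnd against XEN the second probe was called lower at -1.18, where the first gave 1.15 (limma adjusted p = 0.05). Both probes show the loss between Diff and Mid; for ADE and for XEN they disagree.

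Pfkl, the liver form, went from 3.47, 3.08 and 2.61 in ESC to 5.20, 4.58 and 4.76 in Diff (1.79 ± 0.31, limma adjusted p = 5.8e-05). It remained above every ESC array in Mid (3.73, 4.10 and 4.12) and Late (4.28, 4.5032 and 4.27), with nEnd above ESC by 1.12 ± 0.27 (adjusted p = 0.0012), and XEN gave 3.61, 3.50 and 4.23. EpiSC gave 4.44, 4.44 and 4.37 against 2.82, 1.99 and 2.38 in 2iL (2.02 ± 0.31, limma adjusted p = 1.4e-05). ADE gave 2.35, 1.97, 2.32 and 2.32 (-2.17 ± 0.29 from EpiSC, adjusted p = 3.1e-06), so Pfkl rose in 1 route to endoderm and fell in the other. For Pfkl the NACL arrays gave 2.77, 3.81, 3.84 and 2.44. Its decrease from Diff to Mid (-0.86 ± 0.31, adjusted p = 0.041) lost its call without Diff 1, Diff 3 or any of the Mid arrays. Pfkm, the muscle form, passed in EpiSC (1.54 ± 0.38, limma adjusted p = 0.0022) and ADE (-1.52 ± 0.36, adjusted p = 0.0015), with EpiSC arrays at 3.67, 3.69 and 4.03, 2iL at 2.90, 1.48 and 2.39 and ADE at 2.11, 2.12, 2.42 and 2.44. In the first set it stood at 3.65, 3.42 and 2.87 in ESC, 3.08, 2.06 and 2.69 in Diff, 2.78, 3.04 and 1.96 in Mid, 1.96, 2.55 and 1.90 in Late and 2.83, 1.96 and 3.68 in XEN. It was lower in nEnd than ESC (-0.95 ± 0.33, adjusted p = 0.018), a call lost without ESC 1 or ESC 2. For Pfkm the NACL arrays gave 2.63, 2.38, 2.70 and 2.18. Pfkfb3, which makes the fructose 2,6-bisphosphate that activates phosphofructokinase, was higher in EpiSC (2.07 ± 0.43, limma adjusted p = 0.00047) and lower in ADE (-2.36 ± 0.41, adjusted p = 6.3e-05); a dimmer second probe gave 2.78 and -3.05, both called. Pfkfb3 also gave -1.26, -0.40 and 0.38 in ESC, 1.75, -0.09 and 0.67 in Diff, 1.27, 1.78 and 1.02 in Mid, 0.34, 0.65 and 0.47 in Late, 1.78, 2.78 and 2.77 in XEN, 1.95, 2.21 and 2.88 in EpiSC and 0.16, 0.09, -0.16 and -0.16 in ADE. Its rise in Diff (1.21 ± 0.43, adjusted p = 0.027) lost its call without ESC 1, ESC 2 or Diff 1. In nEnd Pfkfb3 was higher than in ESC (1.35 ± 0.37, adjusted p = 0.0039, a call lost without ESC 1) and lower than in XEN (-1.52 ± 0.37, adjusted p = 0.0022, which missed the threshold with the mean of all probes).

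Of the lactate dehydrogenase subunit genes, Ldhb fell in the naive-derived endoderm and Ldha was not called. Ldhb encodes the H subunit, which favours lactate oxidation to pyruvate, and Ldha the M subunit, which favours lactate formation. Ldhb stood at 6.55, 6.70 and 6.99 in ESC, at 1.64, 2.75 and 3.65 in Diff, at -0.90, -1.24 and 1.95 in Mid, and at 0.19, -0.40 and -0.03 in Late. Every Diff, Mid and Late array lay below every ESC array, and Mid 3 lay above Diff 1. The difference was 16.7-fold in Diff (-4.07 ± 0.58, limma adjusted p = 4.7e-06) and 113-fold in nEnd against ESC (-6.82 ± 0.50, adjusted p = 7.6e-11). Mid differed from Diff by a further -2.74 ± 0.58 (limma adjusted p = 0.001), and this did not pass with the Diff and Mid arrays fitted alone. XEN gave 4.56, 3.98 and 4.79, so nEnd was 22.9-fold lower than XEN (-4.52 ± 0.50, limma adjusted p = 1.5e-07). In the second set Ldhb stood at 7.06, 6.46 and 6.73 in 2iL, at 6.10, 5.70, 5.87 and 5.86 in NACL, at 4.11, 3.91 and 5.24 in EpiSC, and at 5.67, 6.63, 5.66 and 5.31 in ADE. EpiSC was lower than 2iL (-2.33 ± 0.58, adjusted p = 0.0022), and ADE higher than EpiSC (1.40 ± 0.54, adjusted p = 0.045), a call lost without EpiSC 1, EpiSC 2, ADE 1, ADE 2 or ADE 3.

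Ldha, on the other hand, passed in none of the 8 comparisons. Its levels were 8.48, 8.48 and 8.08 in ESC, 9.14, 8.46 and 8.54 in Diff, 8.20, 8.39 and 7.93 in Mid, 8.74, 8.64 and 8.58 in Late, and 8.94, 8.63 and 9.04 in XEN. In the second set they were 8.94, 8.32 and 8.47 in 2iL, 8.15, 9.46, 9.37 and 8.43 in NACL, 9.05, 8.66 and 9.04 in EpiSC, and 9.13, 9.40, 9.02 and 9.02 in ADE. Its difference in nEnd against ESC was 0.07 ± 0.24 (limma adjusted p = 0.84). Both other Ldha probes were called higher in EpiSC than in 2iL, by 1.18 and 1.35, where the brightest gave 0.34 ± 0.28 (adjusted p = 0.36).

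At the gate between pyruvate and acetyl-CoA the kinases changed balance. Pdk2 stood at -0.37, -0.27 and -0.89 in ESC, at 2.32, 0.65 and 0.84 in Diff, at 2.54, 2.81 and 1.58 in Mid, and at 2.82, 3.24 and 2.62 in Late, with every Diff, Mid and Late array above every ESC array. It rose in Diff (1.78 ± 0.39, limma adjusted p = 0.00065) and was 8.64-fold higher in nEnd than in ESC (3.11 ± 0.34, adjusted p = 3.9e-08). XEN gave 0.08, -0.30 and 1.16, below nEnd (2.29 ± 0.34, limma adjusted p = 7.9e-06). The 2iL arrays gave -1.14, -0.97 and -1.16, NACL -1.82, -0.94, -1.09 and -1.18, EpiSC 0.28, 0.38 and -0.21, and ADE 0.04, 0.00, 0.24 and -0.13. Pdk2 rose in EpiSC (1.23 ± 0.39, adjusted p = 0.013, a call lost without EpiSC 2), and its ADE difference was -0.11 ± 0.36 (adjusted p = 0.86). The further rise from Diff to Mid (1.04 ± 0.39, adjusted p = 0.046) lost its call without Diff 2, Diff 3, Mid 1 or Mid 2.

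Pdk1, a known hypoxia target, stood at 1.15, 0.65 and -0.09 in ESC, 1.36, 1.24 and 1.93 in Diff, -0.90, 0.34 and 0.33 in Mid, 0.35, 0.50 and 0.06 in Late, and -0.53, 1.24 and 1.61 in XEN. It was lower in Mid than in Diff (-1.59 ± 0.42, limma adjusted p = 0.0067), a call lost without Mid 1. It was the clearest riser in NACL, with arrays at 3.34, 3.68, 3.96 and 3.53 against 1.98, 2.22 and 1.51 in 2iL (1.72 ± 0.40, limma adjusted p = 0.0068). EpiSC gave 2.50, 2.42 and 2.16 and ADE -0.65, -1.19, -1.19 and -0.41, a 9.32-fold difference (-3.22 ± 0.40, adjusted p = 9.5e-07). Pdk3 fell in ADE too, from 1.44, 1.38 and 1.23 to -0.70, -0.98, -1.44 and -0.59 (-2.27 ± 0.26, limma adjusted p = 3.5e-07), and in Diff, from 0.73, 0.47 and 0.62 to -0.47, -0.45 and -0.07 (-0.94 ± 0.28, adjusted p = 0.0086). Mid gave -0.87, -0.78 and 0.56, Late 0.24, -0.30 and -0.03, XEN 0.75, 0.69 and 0.59, 2iL 1.06, 1.49 and 0.90, and NACL 0.97, 1.30, 1.42 and 1.26 for Pdk3. In nEnd Pdk3 was lower than in ESC (-0.80 ± 0.24, adjusted p = 0.0071) and XEN (-0.87 ± 0.24, adjusted p = 0.0055). Both calls were lost with the compared groups fitted alone. Of the subunit genes of the target enzyme, Pdha1, of the E1 alpha subunit, was lower in Mid than in Diff (-0.92 ± 0.20, adjusted p = 0.0016), in nEnd than in XEN (-1.02 ± 0.18, adjusted p = 6e-05) and in ADE than in EpiSC (-0.89 ± 0.19, adjusted p = 0.00067). Pdhb, of the E1 beta subunit, was lower in nEnd than in XEN (-0.93 ± 0.14, adjusted p = 1.2e-05), and its smaller calls in Diff and in ADE each depended on single arrays (ESC 3, Diff 1 or Diff 2, and EpiSC 3 or ADE 3). Dlat, of the E2 subunit, passed in none of the 8 comparisons, its differences lying between -0.41 and 0.25.

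The enzymes that run the pathway in reverse or feed the citrate cycle moved apart from each other. Fbp1, the fructose bisphosphatase that opposes phosphofructokinase, stood at -1.72, -1.10 and -1.51 in ESC, at 0.45, 0.78 and -0.01 in Diff, at -3.15, -3.51 and -2.11 in Mid, and at -3.13, -2.63 and -3.07 in Late. It rose in Diff (1.85 ± 0.44, limma adjusted p = 0.0014) and fell in Mid (-3.33 ± 0.44, adjusted p = 6.1e-06), to below ESC (-1.49 ± 0.38 for nEnd, adjusted p = 0.0019). On the XEN arrays, at -5.79, -5.58 and -7.03, it was not well above background, so nEnd was at least 3.71-fold higher (measured means -2.93 and -6.14, limma adjusted p = 4.3e-07). With normexp background correction this difference was 0.395 in log2 units and did not pass (adjusted p = 0.069). The bound sets the brighter group's mean against the higher of the dim probe's signal and the lowest signal well above background on each array. In 2iL it stood at -1.0007, -0.0399 and -0.9973, in NACL at -3.74, -3.26, -3.98 and -2.52 (-2.70 ± 0.41, limma adjusted p = 0.00016, but 0.068 with the cell line as a block), in EpiSC at -5.90, -4.47 and -4.59, and in ADE at -2.85, -3.34, -2.85 and -2.88. With EpiSC well above background on only 2 of 3 arrays, the measured differences were -4.31 ± 0.44 for EpiSC against 2iL (adjusted p = 4.1e-08) and 2.01 ± 0.41 for ADE against EpiSC (adjusted p = 0.00041). With normexp background correction they were -1.51 and 0.53, both still called.

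Pck2, the mitochondrial phosphoenolpyruvate carboxykinase, stood at -1.43, -1.54 and -1.30 in ESC and at -3.97, -3.95 and -3.91 in Diff (-2.52 ± 0.37, limma adjusted p = 8.2e-06). It remained below every ESC array in Mid (-2.97, -2.83 and -2.87) and Late (-3.38, -3.22 and -3.06), while XEN gave -2.65, -1.17 and -0.81. EpiSC gave -0.55, -0.61 and -0.83, and ADE -4.30, -3.99, -3.20 and -3.30 (-3.03 ± 0.35, adjusted p = 3.9e-07). In nEnd Pck2 was lower than in ESC (-1.63 ± 0.32, adjusted p = 0.00016) and XEN (-1.51 ± 0.32, adjusted p = 0.00061). In EpiSC it was higher than in 2iL (1.31 ± 0.37, adjusted p = 0.0065). The remaining Pck2 levels were -2.39, -2.32 and -1.23 in 2iL and -1.94, -2.02, -2.93 and -1.89 in NACL. Pcx, pyruvate carboxylase, which makes oxaloacetate from pyruvate, went from 2.73, 2.80 and 1.60 in ESC to -0.02, 0.67 and 0.56 in Diff (-1.97 ± 0.27, limma adjusted p = 3.2e-06) and came back to 1.72, 1.90 and 1.4965 in Mid (1.30 ± 0.27, adjusted p = 0.00095). The calls of Pck2 in Mid against Diff (1.06 ± 0.37, adjusted p = 0.036) were lost without any of the 6 arrays, and that of Pcx in nEnd against ESC (-0.74 ± 0.24, adjusted p = 0.01) without ESC 1 or ESC 2.

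Slc2a1, the widely expressed glucose transporter, stood at 4.88, 5.23 and 4.71 in 2iL, at 6.93, 6.79 and 7.24 in EpiSC and at 4.33, 5.14, 4.74 and 4.66 in ADE (2.05 ± 0.42, limma adjusted p = 0.0004, and -2.27 ± 0.40, adjusted p = 7.5e-05). Its promoter is the first printed above. In the first set it gave 4.81, 4.82 and 5.59 in ESC, 5.74, 5.24 and 5.19 in Diff, 5.15, 5.56 and 5.41 in Mid, 5.07, 5.83 and 5.08 in Late and 5.71, 6.38 and 6.96 in XEN. Its call in nEnd against XEN (-1.001 ± 0.366, adjusted p = 0.031) was lost without Mid 1, Late 1, Late 3, XEN 2 or XEN 3, and with Mid and Late arrays of a number averaged (adjusted p = 0.079). For Slc2a1 the NACL arrays gave 4.21, 6.57, 6.30 and 5.56. Slc2a3, the high-affinity transporter, passed only in nEnd against XEN among the 8 comparisons (-0.92 ± 0.23, adjusted p = 0.0022), with Mid at 7.44, 7.32 and 6.98, Late at 7.64, 7.96 and 7.53, and XEN at 8.35, 8.49 and 8.36. Its levels on the other arrays ran from 6.90 (NACL 4) to 8.49 (Diff 1). Slc2a3 also gave 7.54, 7.56 and 7.56 in ESC, 8.49, 7.62 and 7.61 in Diff, 7.42, 7.56 and 6.93 in 2iL, 6.95, 7.99, 7.55 and 6.90 in NACL, 7.94, 7.85 and 7.98 in EpiSC and 7.31, 7.73, 6.99 and 7.36 in ADE.

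Slc16a3, the lactate exporter of glycolytic cells, stood at 3.75, 3.60 and 3.97 in 2iL, at 6.67, 6.70 and 6.76 in EpiSC and at 4.40, 4.55, 4.98 and 4.96 in ADE. It was 2.94 ± 0.59 higher in EpiSC than in 2iL (limma adjusted p = 0.00032) and changed by -1.99 ± 0.56 in ADE against EpiSC (adjusted p = 0.0064). In Diff it gave 6.42, 5.20 and 4.72 against 4.11, 3.44 and 3.67 in ESC (1.71 ± 0.59, adjusted p = 0.023), a call lost without ESC 2, ESC 3 or Diff 1. Mid gave 4.35, 5.02 and 4.24, Late 2.88, 3.57 and 3.15, and XEN 2.99, 5.29 and 5.83. For Slc16a3 the NACL arrays gave 3.16, 5.76, 5.60 and 4.34. Slc16a1, which carries monocarboxylates both ways, was higher in nEnd than in ESC (0.90 ± 0.23, limma adjusted p = 0.0019) and XEN (1.02 ± 0.23, adjusted p = 0.00093). Its arrays read -1.35, -1.18 and -0.50 in ESC, 0.07, -0.06 and -0.61 in Mid, -0.24, 0.11 and 0.07 in Late and -1.41, -0.70 and -1.29 in XEN, and all arrays of the second set lay between -1.91 and -1.20. On the other arrays Slc16a1 stood at 0.07, -0.71 and -0.96 in Diff, -1.76, -1.91 and -1.68 in 2iL, -1.58, -1.69, -1.33 and -1.23 in NACL, -1.61, -1.60 and -1.46 in EpiSC and -1.90, -1.81, -1.20 and -1.70 in ADE.

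Aldolase C, Aldoc, stood at 4.71, 3.05 and 4.04 in 2iL, at 5.98, 6.00 and 6.37 in EpiSC and at 2.24, 2.75, 2.41 and 2.54 in ADE, a rise of 2.18 ± 0.63 in EpiSC (limma adjusted p = 0.0069) and a 12.4-fold drop from EpiSC to ADE (-3.63 ± 0.58, limma adjusted p = 3e-05). Aldoa, the main aldolase, stood at 9.69, 9.60 and 10.01 in EpiSC and at 7.92, 7.57, 8.24 and 8.00 in ADE (-1.84 ± 0.29, adjusted p = 2.5e-05). In the first set neither aldolase passed in any comparison; Aldoa lay between 8.37 (Mid 3) and 9.91 (Diff 1), and Aldoc between 1.64 (XEN 1) and 5.62 (ESC 2). On the other arrays Aldoa stood at 9.40, 9.65 and 9.13 in ESC, 9.91, 9.13 and 8.79 in Diff, 8.73, 8.87 and 8.37 in Mid, 8.94, 9.23 and 8.94 in Late, 9.0020, 8.83 and 8.79 in XEN, 9.56, 8.77 and 9.08 in 2iL and from 8.66 to 10.05 in NACL. The remaining Aldoc levels were 5.24, 5.62 and 4.73 in ESC, 5.43, 4.74 and 4.46 in Diff, 4.22, 4.46 and 4.31 in Mid, 4.80, 4.94 and 4.66 in Late, 1.64, 4.34 and 5.36 in XEN and 3.59, 5.13, 5.69 and 3.86 in NACL. Pgk1, the first ATP-yielding step, stood at 7.62, 6.42 and 7.02 in 2iL, at 8.71, 8.64 and 8.95 in EpiSC and at 6.08, 5.88, 6.17 and 6.23 in ADE (1.75 ± 0.34, limma adjusted p = 0.00023, and -2.68 ± 0.32, adjusted p = 6.4e-07). Tpi1, triose phosphate isomerase, was 1.32 ± 0.33 higher in EpiSC (adjusted p = 0.0027) and changed by -1.4988 ± 0.312 in ADE (adjusted p = 0.00051). Pkm, pyruvate kinase, stood at 6.94, 6.56 and 6.83 in 2iL, at 7.57, 7.72 and 7.70 in EpiSC and at 6.43, 6.34, 6.71 and 6.64 in ADE (0.89 ± 0.20, limma adjusted p = 0.001, and -1.13 ± 0.19, adjusted p = 4.3e-05).

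Pkm, all 3 enolase genes, Pgam1 and Tpi1 (-1.01 ± 0.29, limma adjusted p = 0.0072) were lower in nEnd than in XEN. Pgk1 (-0.65 ± 0.30, limma adjusted p = 0.082), Gapdh by its brightest probe and Ldha were not called. Pkm stood at 5.81, 5.93 and 6.02 in Mid and 6.35, 6.38 and 6.30 in Late against 7.51, 7.49 and 7.71 in XEN (-1.44 ± 0.17, limma adjusted p = 6e-07), with no overlap. Eno3, the muscle enolase, gave 1.19, 1.56 and 1.72 in Mid and 1.17, 1.62 and 1.23 in Late against 3.08, 2.91 and 3.39 in XEN (-1.71 ± 0.18, adjusted p = 6.3e-08). Eno2, the neuronal enolase, gave 0.03, -0.25 and -0.99 in Mid, -0.37, 0.21 and -0.22 in Late and 0.27, 2.13 and 3.03 in XEN (-2.08 ± 0.39, adjusted p = 0.00016). Eno1, the main enolase, gave 6.76, 6.93 and 6.83 in Mid, 7.31, 7.41 and 7.32 in Late and 8.22, 8.18 and 8.26 in XEN (-1.13 ± 0.38, limma adjusted p = 0.019), a call lost without XEN 1 or XEN 3, and with Mid and Late arrays of a number averaged (adjusted p = 0.059). Eno1 stood at 8.5036, 8.26 and 7.83 in ESC and 8.19, 8.09 and 8.48 in Diff, so its drop came after Diff (-1.41 ± 0.43, adjusted p = 0.017, lost without Diff 3). In the second set no comparison of Eno1 or Eno2 passed, while Eno3 was higher in EpiSC (1.92 ± 0.21, limma adjusted p = 8.9e-08) and lower in ADE (-1.24 ± 0.19, adjusted p = 2.1e-05). Eno3 read 1.94, 1.55 and 2.14 in 2iL, 3.91, 3.72 and 3.76 in EpiSC and 2.55, 2.63, 2.51 and 2.55 in ADE; in ESC it read 1.63, 1.76 and 1.59, and in Diff 0.70, 0.76 and 0.71 (-0.94 ± 0.21, adjusted p = 0.00071). On the other arrays Eno1 stood at 8.25, 7.99 and 6.37 in 2iL, 7.35, 8.67, 8.57 and 6.82 in NACL, 8.55, 7.37 and 7.52 in EpiSC and 7.36, 8.07, 8.06 and 8.02 in ADE. The remaining Eno2 levels were -0.21, -0.04 and 0.34 in ESC, 0.50, -0.06 and -0.34 in Diff, 0.05, -0.14 and 0.13 in 2iL, 1.27, 1.22, 0.49 and -0.07 in NACL, -0.09, -0.09 and -0.13 in EpiSC and 0.09, -0.16, 0.40 and 0.01 in ADE. For Eno3 the NACL arrays gave 1.27, 1.23, 1.49 and 2.14. Pgam1, phosphoglycerate mutase, was lower in nEnd than in XEN (-1.11 ± 0.19, adjusted p = 6.6e-05) and in ADE than in EpiSC (-0.95 ± 0.21, adjusted p = 0.00088). Gpi1, glucose phosphate isomerase, was lower in Mid than in Diff (-0.74 ± 0.20, adjusted p = 0.0071) and in ADE than in EpiSC (-1.11 ± 0.19, adjusted p = 4.8e-05), with both other probes called in the same directions. Gapdh, often used as a reference gene, passed in none of the 8 comparisons with its brightest probe, but its 6 other probes were all called lower in ADE, with differences of -1.16 to -0.67, and in nEnd against XEN, with -0.82 to -0.47. In nEnd against ESC 5 of the 6 were called lower, in Mid against Diff 3 and in Diff against ESC 2, and 1 was called higher in Late against Mid.

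**Figure D3:**
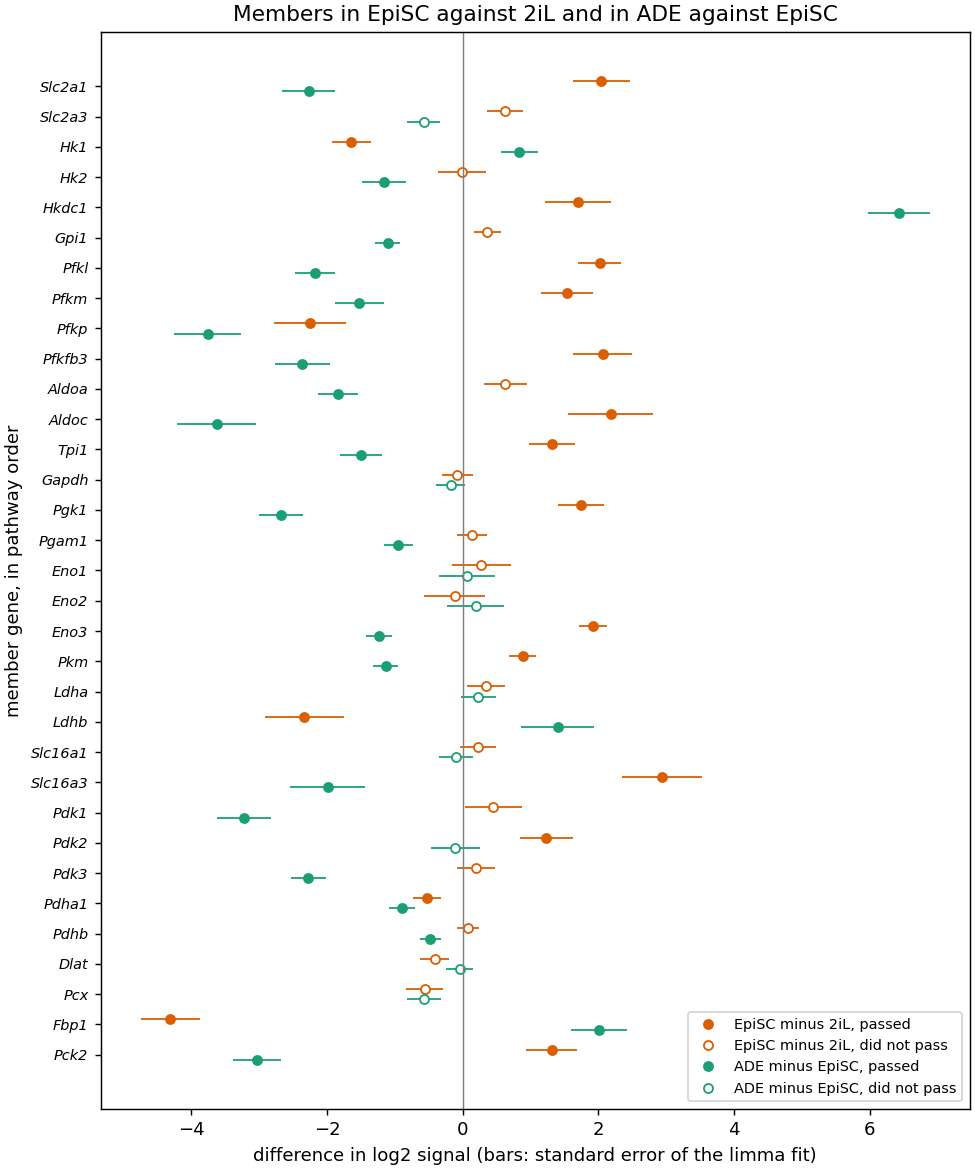
Difference in log2 signal (horizontal axis, bars show the standard error) of each member in EpiSC against 2iL and in ADE against EpiSC; filled points passed at an adjusted p under 0.05. Of the 33 members, 13 lie to the right in EpiSC and 20 to the left in ADE as filled points, and Hkdc1 in ADE lies farthest right at 6.43; both comparisons share the EpiSC arrays.

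On slide 5 alone, which holds 1 of the 3 EpiSC arrays, 7 members were called in EpiSC against 2iL (3 higher, 4 lower, with 3455 of 16331 genes called) and 11 in ADE against EpiSC (3 higher, 8 lower, with 2446 of 16331 genes). On slide 6 alone, which holds the other 2 EpiSC arrays and 1 of the 2iL arrays, 13 were called in EpiSC against 2iL (10 higher, 3 lower, with 3115 of 16332 genes) and 21 in ADE against EpiSC (2 higher, 19 lower, with 3188 of 16333 genes). On slide 5 alone, members called higher in EpiSC against 2iL made up no larger a share than among all genes. That fit has 1 EpiSC array, so it cannot show whether the excess seen with all arrays holds. These slide fits were chosen after seeing the data, and a lone array was assumed to vary like the other groups of its slide. Of 4 fibroblast or feeder markers, 3 were called higher in EpiSC than in 2iL and 3 lower in ADE than in EpiSC. Thy1 was the exception in EpiSC, at a mean of 0.17 against 0.61 in 2iL. All 4 were well above background on every EpiSC array, against 3 of 4 in 2iL, where Postn was on no array, and 2 of 4 on every ADE array. The log2 of their summed linear signals was 3.953 to 4.365 in EpiSC, 0.765 to 1.439 in 2iL, 1.361 to 4.162 in NACL and 1.867 to 4.121 in ADE. The part of these markers in the results was not tested. Of hypoxia targets outside the members, 12 of 16 were higher and 2 lower in EpiSC against 2iL, and 1 was higher and 8 lower in ADE against EpiSC. Of all genes, 21.5% were higher and 20.1% lower in the first comparison, and 16.9% and 20.7% in the second. Egln3 (3.59 ± 0.59, limma adjusted p = 2.9e-05), an oxygen-sensing prolyl hydroxylase, led the rise in EpiSC, and Bhlhe40 (-5.20 ± 0.48, adjusted p = 1.7e-08), a transcriptional repressor, the fall in ADE.

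Whether isozymes of a step changed their balance was tested by taking every gene relative to a reference isozyme on the same array and refitting, and 38 of 96 ratios passed. A share of all genes called is given for each, and where it is large the reference itself moved, so that most genes pass. Relative to Hk1, Hkdc1 rose by 10.48 ± 0.54 in Diff (limma adjusted p = 1.2e-13) and Hk2 by 1.37 ± 0.45 (adjusted p = 0.0087), where 74.3% of genes passed; Hk2 rose by 1.64 ± 0.45 in EpiSC (80.5% of genes) and changed by -1.99 ± 0.42 in ADE (49.1%). The Hk2 ratio in Diff was -0.617 in the authors' processed values. Relative to Pfkl, Pfkp changed by -2.93 ± 0.51 in Diff (80.5% of genes), -4.98 ± 0.51 in Mid against Diff (31.7%), -4.27 ± 0.51 in EpiSC (84.1%) and -1.58 ± 0.48 in ADE (87.3%), the last being 0.122 with the mean of all probes. Pfkm relative to Pfkl changed by -2.50 ± 0.37 in Diff (80.5% of genes). Aldoc relative to Aldoa rose by 1.55 ± 0.56 in EpiSC (35.4% of genes) and changed by -1.79 ± 0.52 in ADE (82.1%). Eno3 relative to Eno1 rose by 2.18 ± 0.56 in Mid against Diff (53.2%) and by 1.65 ± 0.56 in EpiSC (19.2%).

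Ldhb relative to Ldha changed by -4.44 ± 0.66 in Diff (limma adjusted p = 1.2e-05), by -2.20 ± 0.66 in Mid against Diff, by -4.06 ± 0.57 in nEnd against XEN and by -2.67 ± 0.66 in EpiSC, where 31.6%, 22.9%, 27.7% and 31.4% of genes passed. Slc2a3 relative to Slc2a1 changed by -1.42 ± 0.45 in EpiSC (81.7% of genes) and by 1.70 ± 0.42 in ADE (86.8%). Slc16a3 relative to Slc16a1 changed by 2.71 ± 0.54 in EpiSC (27.8%) and by -1.90 ± 0.51 in ADE (22.6%). Pdk2 relative to Pdk1 rose by 2.63 ± 0.56 in Mid against Diff (66.9%), by 2.95 ± 0.48 in nEnd against XEN (20.5%) and by 3.11 ± 0.52 in ADE (94.5%), and changed by -1.89 ± 0.52 in NACL (84.3%). The ADE change relative to Pdk1 is thus shared by nearly all genes.

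**Figure D4:**
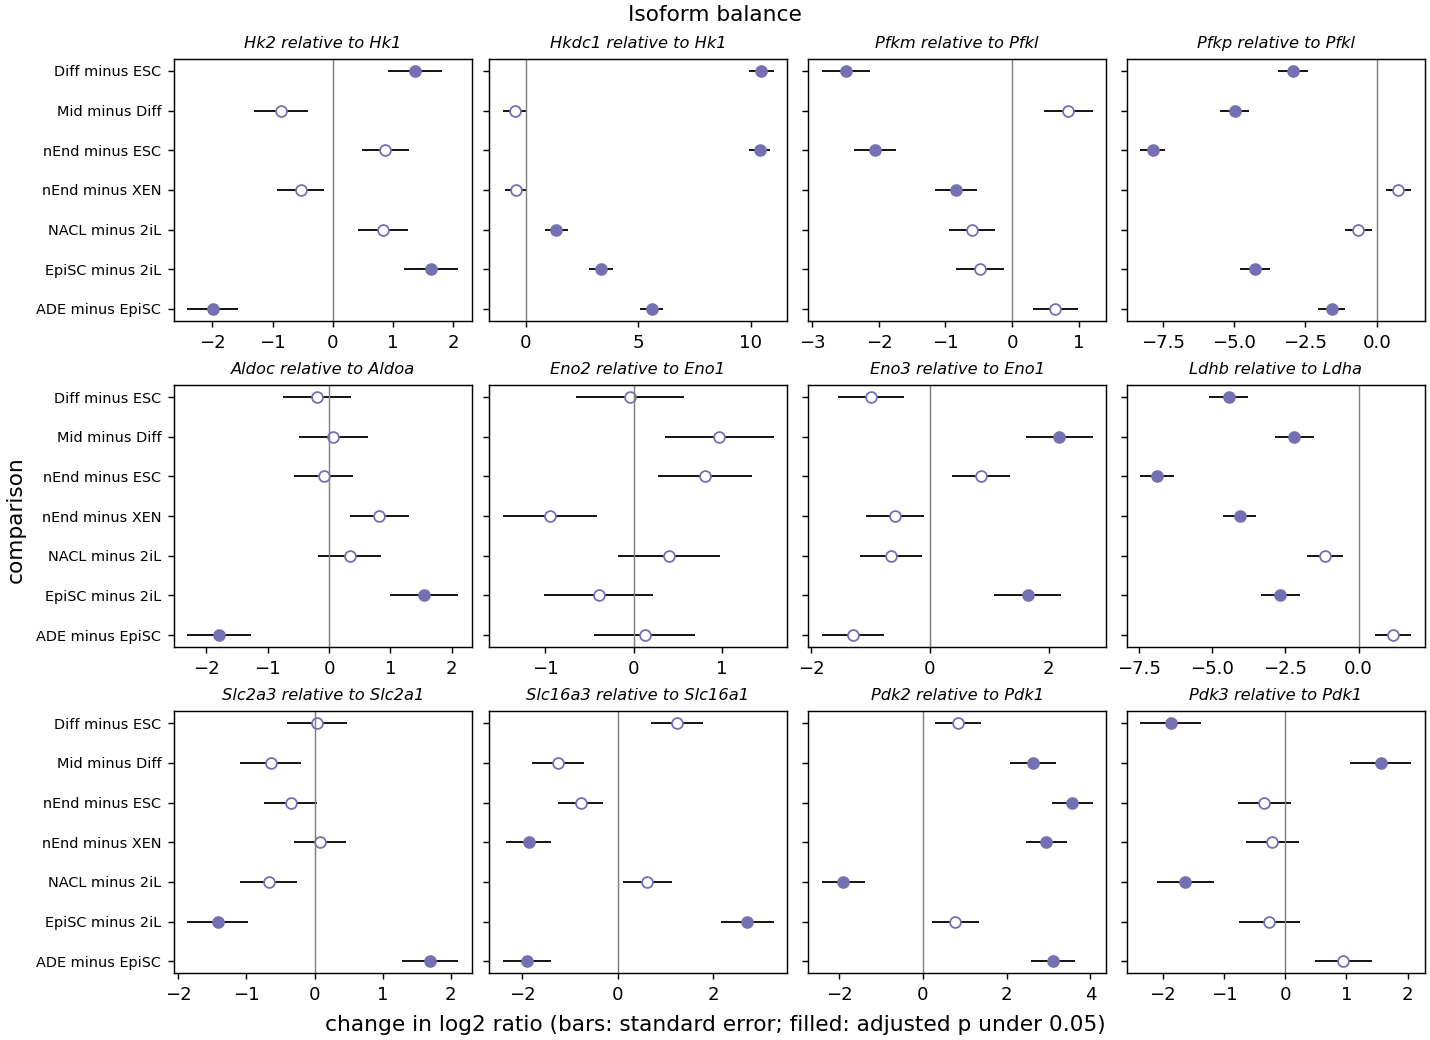
Change of the log2 ratio between an isozyme and its reference isozyme (horizontal axis, bars show the standard error) in 7 comparisons (vertical axis) for 12 pairs; filled points passed at an adjusted p under 0.05, and each panel has its own scale. Ldhb relative to Ldha lies left of 0 in Diff, Mid, nEnd and EpiSC, and Hkdc1 relative to Hk1 reaches 10.48 in Diff.

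The routes to endoderm from naive cells (Diff against ESC) and from primed cells (ADE against EpiSC) were compared by the difference of their differences. It was called higher for 18 members and lower for 3, against 21.9% and 14.9% of all genes. Pdk1 (4.16 ± 0.58, limma adjusted p = 6e-06) and Pfkl (3.97 ± 0.43, adjusted p = 1.9e-07) were the largest positive values, and Pgk1 gave 2.84 ± 0.47 (adjusted p = 4.6e-05). Hkdc1 rose on both routes, by 2.39 ± 0.67 more from naive cells (adjusted p = 0.0069). Ldhb was the most negative (-5.46 ± 0.79, adjusted p = 9.5e-06), having fallen in Diff but not in ADE, followed by Hk1 (-2.49 ± 0.40, adjusted p = 3.2e-05) and Pcx (-1.40 ± 0.37, adjusted p = 0.0049). In the authors' processed values the Hk1 value was -0.251 and did not pass. Fbp1, not called here (-0.17), was called higher in the authors' values (0.995) and with normexp background correction (0.69). Against the response of stem cells to the same factors in NACL, 3 members were higher and 6 lower, with 17% and 13.3% of all genes. Hkdc1 (8.31 ± 0.67, limma adjusted p = 6.5e-09), Fbp1 (4.54 ± 0.60, adjusted p = 5e-06) and Pdk2 (1.95 ± 0.53, adjusted p = 0.0071) were higher, and Ldhb (-3.20 ± 0.79, adjusted p = 0.0034) was the most negative. The routes also differ in cell line label, array set and starting state, which cannot be told apart here.

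In NACL against 2iL 2 members were called higher and 1 lower (6.06% and 3.03%, against 4.12% and 4.13% of all genes). They were Pdk1 and Fbp1, described above, and Pfkfb3 (1.38 ± 0.41, limma adjusted p = 0.035). The NACL arrays spread widely for some members, with an SD of 1.06 for Slc2a1 and 1.22 for Slc16a3, against 0.27 and 0.19 in 2iL. A member without a call here is therefore not shown to be alike in the 2 groups. Pfkfb3 read 0.82, 0.10 and -0.08 in 2iL and 1.48, 1.95, 2.27 and 0.94 in NACL, and its call was lost without 2iL 2, 2iL 3, NACL 2 or NACL 3. The count was 5 without NACL 1, 7 without NACL 4 and 2 without 2iL 3 or NACL 3. With the cell line as a block, which pairs the lines that 2iL and NACL share, the call of Pdk1 remained, while Fbp1 (adjusted p = 0.068) and Pfkfb3 (adjusted p = 0.12) lost theirs. Late against Mid gave no called member, against 3.78% of genes called higher and 3.07% lower; 3 members had an unadjusted limma p under 0.05. Without Mid 3, 1 member was called, Pdk3. The members' median difference was 0.28, with that of all genes at 0.12.

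The counts in the first set depended on the scaling. With arrays centred on the median of all probes, the median of all genes shifted to 0.32 in Diff against ESC, 0.23 in nEnd against ESC and -0.38 in nEnd against XEN, and the members called became 8 higher and 4 lower, 5 higher and 4 lower, and 3 higher and 14 lower, in the same order. Of 16333 genes, 5727, 7356 and 6423 were called with that centring, and 4243, 4880 and 1544 of these (74.1%, 66.3% and 24%) were higher. Members called lower in nEnd against ESC then made up no larger a share than among all genes. Mid against Diff became 2 higher and 4 lower with that centring, where 2903 of 16333 genes were called, 1268 of them higher. With quantile normalisation it became 5 higher and 5 lower, where 4786 genes were called, 2436 of them higher. In both settings the members were near the shares of all genes. Mid against Diff gave 9 called members without Diff 3 or without Mid 1. On the first scan day alone it gave 1 higher and 8 lower. The members whose decrease in nEnd against ESC did not pass after median centring were Eno1, Gpi1, Hk1, Pkm, Pdha1, Pdhb, Pdk3, Pcx and Pfkm. At the main scaling those not yet given were -1.11 ± 0.38 for Eno1 (limma adjusted p = 0.016, lost without ESC 1 or ESC 2), -0.57 ± 0.17 for Gpi1 (adjusted p = 0.0069) and -1.11 ± 0.25 for Hk1 (adjusted p = 0.00065). They were -0.88 ± 0.17 for Pkm (adjusted p = 0.00016), -0.84 ± 0.18 for Pdha1 (adjusted p = 0.0003) and -0.43 ± 0.14 for Pdhb (adjusted p = 0.013, lost without ESC 3). In Mid against Diff, Eno3 (0.77 ± 0.21, adjusted p = 0.0071) and Pkm (-0.79 ± 0.20, adjusted p = 0.0051) were called, and neither was after median centring.

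Of 18 citrate cycle genes, 1 was higher and 13 lower in nEnd than in XEN, led by Sucla2 (-1.94 ± 0.15, limma adjusted p = 7.7e-10), a subunit of succinyl-CoA synthetase, while in ADE 0 were higher and 3 lower. Of all genes, 16.6% were higher and 24.5% lower in nEnd than in XEN, and 16.9% and 20.7% in ADE than in EpiSC. The 3 lower in ADE are thus near the share of all genes. In nEnd against ESC 28% of all genes were higher and 25.3% lower, the shares to set beside the pentose phosphate, pyruvate, regulator and hypoxia counts that follow. Of 8 pentose phosphate genes, 4 were higher and 3 lower in nEnd than in ESC, led by Rpia (2.01 ± 0.24, limma adjusted p = 2.5e-07), ribose 5-phosphate isomerase, and H6pd (-1.499 ± 0.188, adjusted p = 3.8e-07). Of 10 other pyruvate genes, 2 were higher and 5 lower in nEnd than in ESC: the malic enzyme genes Me2 (2.20 ± 0.24, limma adjusted p = 4.2e-08) and Me1 (2.20 ± 0.37, adjusted p = 1.9e-05) rose, and Pdk4, another pyruvate dehydrogenase kinase, fell (-5.05 ± 0.47, adjusted p = 3.2e-09). Of 19 other glycolysis and gluconeogenesis genes, 5 were higher and 4 lower in EpiSC than in 2iL, against 21.5% and 20.1% of all genes. In ADE against EpiSC 4 of these 19 were higher and 3 lower, near the shares of all genes. Among them were Pfkfb4 (2.99 ± 0.24, limma adjusted p = 2.1e-09) and Slc2a4 (-3.03 ± 0.43, adjusted p = 5.7e-06), the insulin-regulated glucose transporter. Of 12 regulators, 6 were higher and 3 lower in nEnd than in ESC, the 3 being near the share of all genes. The hypoxia-inducible factor Epas1 was at 5.29 ± 0.45 (limma adjusted p = 8.5e-10). Epas1 also rose in ADE (3.00 ± 0.49, adjusted p = 3.2e-05) and was lower in EpiSC than in 2iL (-2.12 ± 0.52, adjusted p = 0.0021), where Myc was higher (2.51 ± 0.71, adjusted p = 0.006). In nEnd against ESC 10 of the 16 hypoxia targets were higher and 1 lower, led by the collagen prolyl hydroxylase subunit genes P4ha2 (5.60 ± 0.38, adjusted p = 2.3e-11) and P4ha1 (4.03 ± 0.34, adjusted p = 7.8e-10).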

How the data were processed

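Per the labels and file headers, total RNA was hybridised to one-colour Agilent arrays and the authors deposited scanner files with processed intensity per spot (Feature Extraction 11.0.1.1 and 12.0.1.1 per the file headers, 9.1 per the submitters' processing notes) and a table of processed log2 values, whose normalization is not given in the sources used here; its array medians are 5.94 to 5.949. From the deposited intensities, log2 values were scaled to each array's 75th percentile, leaving out control and flagged spots, and spots of a probe were averaged. Symbols came from RefSeq accessions (27636 of 55681 probes); a gene is represented by its brightest probe over the 29 arrays. A gene was tested (16333 were) where some group had it well above background on every array. One limma (3.58.1, R 4.3.3) model of 9 group means gave 8 comparisons and 2 differences of differences, with Benjamini-Hochberg adjustment. Array number limits the precision.

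The members and lists were chosen with earlier results of these data known. All members are accounted for; array values are given for the isozyme families and for the 3 called members with the largest difference in each comparison, and of other lists up to 2 called genes a direction. Normexp background correction, an alternative, used the median spot signal. Other alternatives were median centring, quantile normalisation, the authors' log2 values, no dim-probe filter, the mean of all probes, fitting the compared groups alone, replicate, slide, scan day and cell line blocks, and leaving out each array. On simulated data for Diff against ESC, 156 of 200 changes of 2 log2 units (78%) were recovered among 16333 genes with 14 false calls. Same-numbered arrays of Mid and Late deviated together (correlations 0.218, 0.129 and 0.141), so they were taken as pairs. Mid 1 and Late 1 shared slide 3 and Mid 2 and Late 2 slide 1, while Mid 3 and Late 3 lay on slides 2 and 1. The part of the slide in these correlations was not tested. The nEnd comparisons count the 6 arrays singly, with the pairs averaged as an alternative. The replicate block called 0 members in Late against Mid, as without it. Figures used matplotlib 3.10.9.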

Additional observations from a re-analysis of the deposited data

Results flagged for a closer look

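Of 66 tests of a lone array among 4 or more replicates, 7 stood apart, and chance gives about 1 in 20. These were Hk2 on NACL 1 (2.68), Pfkp on NACL 4 (2.23), Pck2 on NACL 3 (-2.93), Pfkl on ADE 2 (1.97), Pfkp on ADE 4 (-1.82), Eno1 on ADE 1 (7.36) and Fbp1 on ADE 2 (-3.34), each a log2 level far from the other arrays of its group.

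The response in Diff differed from that in ADE, by the limma test of the difference itself, for 21 members. The difference of differences in log2 units was 4.16 for Pdk1, 3.97 for Pfkl, 3.7 for Slc16a3, 3.57 for Pfkfb3, 3.31 for Aldoc and 2.84 for Pgk1. It was 2.62 for Pfkp, 2.59 for Slc2a1, 2.39 for Hkdc1, 1.96 for Tpi1, 1.89 for Pdk2 and 1.72 for Aldoa. It was 1.34 for Pdk3, 1.1 for Gpi1, 1.09 for Pdha1, 0.93 for Slc2a3, 0.85 for Pgam1 and 0.83 for Pkm. It was negative for Ldhb (-5.46), Hk1 (-2.49) and Pcx (-1.4).

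Against the response in NACL, Diff differed for 9 members: Hkdc1 (8.31), Fbp1 (4.54), Pdk2 (1.95), Ldhb (-3.2), Pck2 (-2.31), Pcx (-1.93), Pdk3 (-1.02), Pkm (-0.8) and Pdhb (-0.74).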

How the results depend on the processing

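Counts of called members moved by more than 1.5 times under these settings. Median centring gave 6 in Mid against Diff and 9 in nEnd against ESC. The authors' processed values, which covered 26 of the 33 members, gave 8 in Mid against Diff, as did fitting those groups alone. The cell line as a block gave 1 in NACL against 2iL. Of settings chosen after seeing the data, the first scan day alone gave 9 in Mid against Diff, slide 5 alone 7 in EpiSC against 2iL and 11 in ADE against EpiSC, and slide 6 alone, with 1 array of each of those groups and the spread taken from EpiSC and ADE, 0 in NACL against 2iL. Averaging Mid and Late arrays of a number, also chosen after seeing the data, gave 18 in nEnd against ESC and 15 in nEnd against XEN, without Eno1 and Slc2a1. Leaving out 1 array gave 9 to 12 in Mid against Diff, 0 to 1 in Late against Mid and 2 to 7 in NACL against 2iL, and stayed within 1.5 times elsewhere. The replicate block gave 13, 13, 0, 18, 17, 3, 18 and 24 in the 8 comparisons in order of description (Diff, Mid, Late, nEnd against ESC, nEnd against XEN, NACL, EpiSC, ADE), within 1.5 times of the counts without it. Of 30 same-numbered pairs of the first array set, 11 correlated above 0.1, and in neither set did all pairs of any 2 groups other than Mid and Late. Hk1 reversed in the authors' processed values, to 0.207 in Diff and -0.353 in Mid against Diff; the cause was not tested. Between 28 and 44 isozyme ratios passed under the alternatives. Precision is limited by 3 or 4 arrays a group, and by dim signal for Fbp1 in XEN and EpiSC and Pfkp in XEN; with normexp background correction the Fbp1 difference of nEnd from XEN was 0.395 and did not pass.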
